A study of Homo sapiens with 13 samples.

Results

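The mRNAs of 9 histone deacetylase genes, HDAC1, HDAC2, HDAC3, HDAC4, HDAC5, HDAC6, HDAC7, HDAC8 and HDAC10, were followed in K562, a human cell line from chronic myeloid leukaemia, through a pulse and chase of 4-thiouridine (4sU). They were chosen by symbol, as the rows whose Ensembl ID maps to those names, and make up 9 of 59204 human gene IDs. HDAC9 and HDAC11 do not belong to the list. In the 12 chase libraries, cells had taken up 30 µM 4sU for 12 h with fresh medium every 3 h, were washed, and were harvested after 0, 1, 2, 4, 8 or 12 h in medium with 3 mM uridine, with 2 replicates at each time. In the remaining library the cells had no 4sU. The labels give no other treatment, and nothing in them says whether replicates were grown apart, so every p-value refers to the spread between these libraries alone, which may be technical. The method, SLAM-seq, alkylates the 4sU in RNA so that it reads as a base change, which marks RNA made during the pulse. Reads called labelled carry that mark. All other reads are unlabelled here, also reads of RNA made during the pulse in which no change was called. The libraries hold the 3' ends of mRNAs, so a count is per transcript end and is not scaled by length.

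Histone deacetylases remove acetyl groups from lysines of histones and other proteins. The class I enzymes HDAC1, HDAC2 and HDAC3 are nuclear and act as catalytic subunits of corepressor complexes, with HDAC1 and HDAC2 in SIN3, NuRD, CoREST and MiDAC and HDAC3 in the NCoR complex, while HDAC8 acts without such a complex and deacetylates the cohesin subunit SMC3. The class IIa proteins HDAC4, HDAC5 and HDAC7 bind MEF2 factors and leave the nucleus when phosphorylated sites bind 14-3-3 proteins. The class IIb enzymes are HDAC6, a cytoplasmic tubulin deacetylase, and HDAC10, which deacetylates acetylated polyamines.

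The human counts per library ranged over 9004529 to 17425584. Labelled reads made up 10.7% ± 0.274 of them at 12 h and 36.0% ± 0.175 at 0 h (SD, n = 2 each), against 0.00633% in the library without 4sU. All 12 K562 erythroid and progenitor markers averaged over 1 CPM, the unit of counts scaled to library size, and their summed level was 9306 to 13870 CPM in the chase libraries, against 5059 CPM without 4sU. Of the markers of other cells, 2 of 8 for lymphocytes, 2 of 8 for monocytes and granulocytes, 3 of 4 for epithelium and 0 of 4 for fibroblasts averaged over 1 CPM, none was at 0 in every library, and the highest were KRT18 (190 CPM) and CD3D (22.9 CPM). The summed epithelial markers were 364 to 478 CPM in the chase libraries and 551 CPM without 4sU, and the part of either shift in the results was not tested. The Drosophila spike-in counts placed the libraries on 2 sides of their first component (66.2% of the variance over 648 genes), with all 0, 1 and 2 h libraries and replicate 1 at 4 h on one side and the others on the opposite side. Hence only the 4 h replicates tie the sides together, and values from a fit that also holds the side are given beside the main ones.

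Total RNA at the end of the pulse was lower than without 4sU for 8 of the 9 genes, where 31.8% of all 16255 genes tested were called lower and 33.5% higher (edgeR's quasi-likelihood test with Benjamini-Hochberg adjustment, threshold 0.05). HDAC7 stood farthest out. It had 37.1 and 40.1 CPM at 0 h, against 818 CPM without 4sU, a 21.2-fold lower level and a log2 fold change of -4.38 ± 0.10 (SE, adjusted p = 1.2e-22). Both 0 h libraries were far under the single library without 4sU, and 81 of the 16255 genes had a more negative log2 fold change. With a single library on that side, its own spread could not be estimated. Every SE and p-value given for 0 h against no 4sU thus rests on the spread between the chase duplicates. None of them measures how cultures without 4sU differ from each other.

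The class I genes were lower by less. HDAC1 had 79.1 and 85.2 CPM at 0 h and 241 CPM without 4sU, with a log2 fold change of -1.53 ± 0.08 (adjusted p = 8.6e-15). HDAC2 had 118 and 112 CPM at 0 h and 184 CPM without 4sU, with a log2 fold change of -0.66 ± 0.08 (adjusted p = 6.5e-08). For both genes, which encode closely related catalytic subunits of the same complexes, the 0 h libraries lay under the one without 4sU. HDAC3 and HDAC8 had log2 fold changes of -0.71 ± 0.10 (adjusted p = 5.1e-07) and -1.22 ± 0.17 (adjusted p = 8.3e-07).

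Among the low genes, HDAC10 had 8.50 and 7.88 CPM at 0 h and 17.5 CPM without 4sU, with a log2 fold change of -1.07 ± 0.19 (adjusted p = 1.8e-05). The class IIa genes HDAC4 and HDAC5 had log2 fold changes of -0.77 ± 0.24 and -0.64 ± 0.21 (adjusted p = 0.0064 and 0.011). HDAC6 did not pass the test, at 30.7 and 25.5 CPM at 0 h against 33.6 CPM without 4sU (log2 fold change -0.23 ± 0.13, adjusted p = 0.12). The median log2 fold change of the 9 genes was -0.77, and that of all genes tested was 0.06. Relative to spike-in counts the median of all genes moved to 0.54, and 4 of the 9 genes (HDAC1, HDAC7, HDAC8 and HDAC10) were called lower, as were 18.4% of all genes, with HDAC7 at -3.90 and HDAC6 with the opposite sign at 0.24 (adjusted p = 0.23). In a fit that also held the spike-in side, 6 of 9 and 24.2% of all genes were called lower, HDAC7 at -4.15 ± 0.14, while HDAC4 (adjusted p = 0.058) and HDAC5 (adjusted p = 0.28) lost their calls. Without replicate 2 at 0 h HDAC5 lost its call (adjusted p = 0.17), while without replicate 1 at 0 h HDAC6 gained one (adjusted p = 0.040). These levels are shares of a library, and RNA per cell was not measured.

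**Figure D1:**
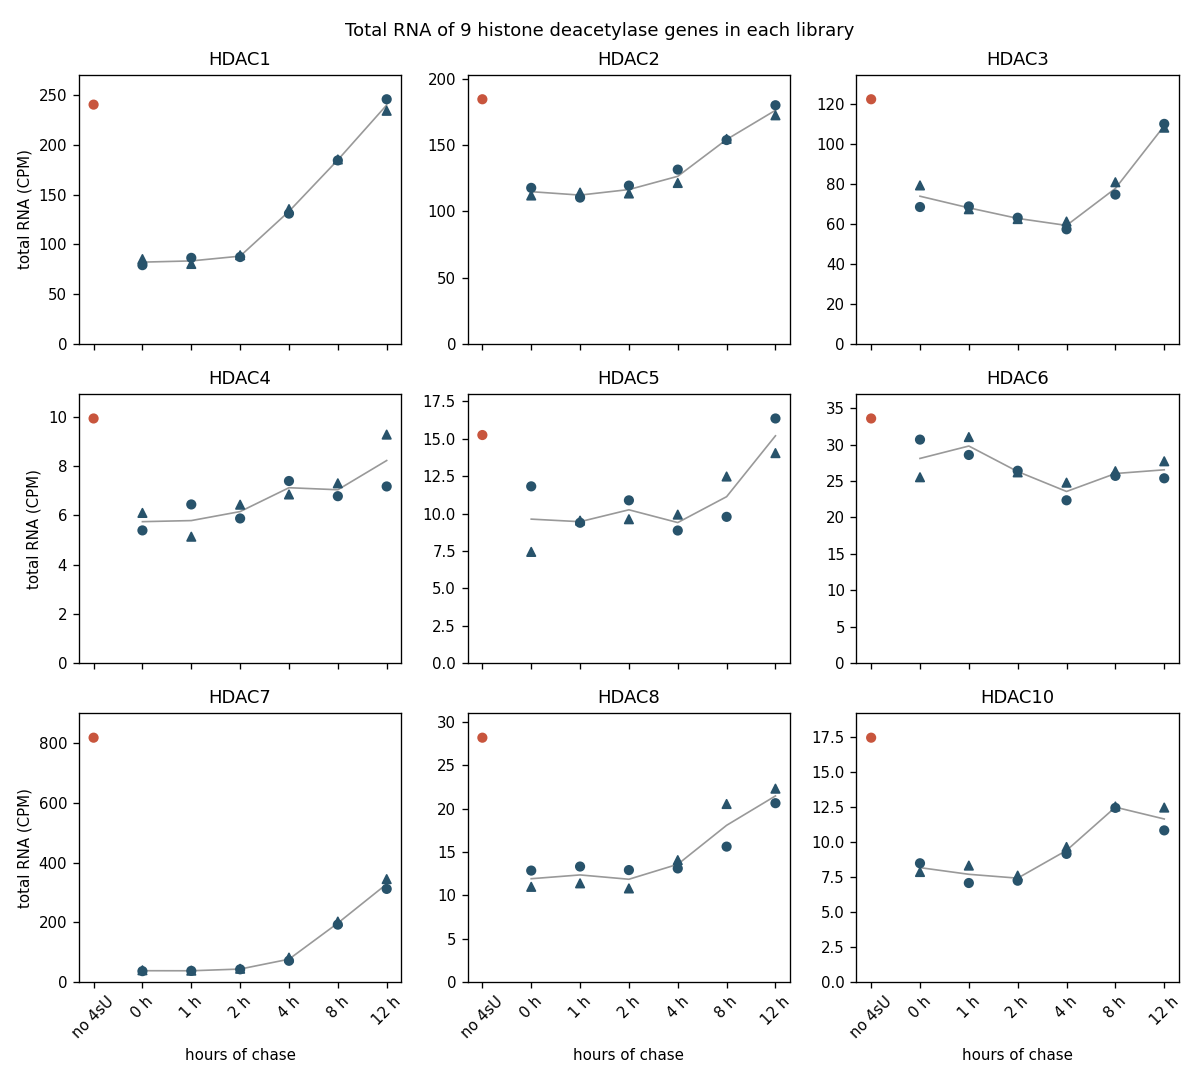
Total RNA of each gene in CPM (linear axis from 0, its own range per panel) in the library without 4sU (red) and in the chase libraries by hour (blue, circles replicate 1 and triangles replicate 2, line through the means). HDAC7 lies at 38.6 CPM at 0 h against 818 CPM without 4sU, and HDAC1 and HDAC7 climb after 2 h while HDAC6 stays between 22.4 and 31.0 CPM.

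Over the chase, total RNA changed for 7 of the 9 genes in a joint test of all times (62.3% of all genes), namely all except HDAC4 (adjusted p = 0.24) and HDAC6 (adjusted p = 0.059). At 1 h edgeR called none of the 9, where 0.32% of all genes were called higher and 0.0369% lower, none had an unadjusted p under 0.05, and DESeq2 also called none. At 2 h edgeR again called none, against 5.25% of all genes higher and 1.73% lower, 1 had an unadjusted p under 0.05, and DESeq2 also called none. HDAC3 came nearest, with a log2 fold change of -0.27 ± 0.09 (adjusted p = 0.061), and was called lower in several other fits. With the spike-in side in the fit it was at -0.27 (adjusted p = 0.031), where 2.99% of all genes were called lower, and with the replicate numbers as a block at -0.26 (adjusted p = 0.045). It was also called without replicate 1 at 0 h (-0.37, adjusted p = 0.028) and without either library at 4 h (adjusted p = 0.028 and 0.030).

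At 4 h HDAC1 and HDAC7 were higher than at 0 h and HDAC3 was lower, where 16.7% of all genes were called higher and 15.5% lower. HDAC1 had 131 and 135 CPM at 4 h against 79.1 and 85.2 CPM at 0 h (log2 fold change 0.66 ± 0.07, adjusted p = 1.2e-07). HDAC7 had 71.8 and 82.4 CPM at 4 h against 37.1 and 40.1 CPM at 0 h (log2 fold change 0.96 ± 0.09, adjusted p = 7.6e-09). Replicate 1 at 4 h lies on the same spike-in side as the 0 h libraries, and in it both genes were above each 0 h library. HDAC3 had 57.2 and 61.1 CPM at 4 h against 68.3 and 79.1 CPM at 0 h (log2 fold change -0.35 ± 0.09, adjusted p = 0.0025), without overlap. Its call was lost relative to spike-in counts (-0.23, adjusted p = 0.17; median of all genes 0.10) and without replicate 2 at 0 h (adjusted p = 0.11). HDAC6 missed the threshold at 4 h with -0.29 ± 0.12 (adjusted p = 0.058) and passed it when the spike-in side was in the fit (-0.39, adjusted p = 0.035) and without replicate 2 at 0 h (adjusted p = 0.038) or at 4 h (adjusted p = 0.034).

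At 8 h HDAC1, HDAC2, HDAC7, HDAC8 and HDAC10 were higher than at 0 h, and none was lower, where 23.7% of all genes were called higher and 25.4% lower. HDAC3 was then back near its 0 h level, with 74.5 and 80.7 CPM at 8 h against 68.3 and 79.1 CPM at 0 h. In a fit that also held the spike-in side, 3 of 9 and 15.5% of all genes were called higher, and HDAC8 (0.42 ± 0.27, adjusted p = 0.25) and HDAC10 (0.46 ± 0.30, adjusted p = 0.26) lost their calls. HDAC8 also lost it without replicate 2 at 8 h (0.34, adjusted p = 0.14). Relative to spike-in counts 6 of 9 and 33.6% of all genes were called higher (median of all genes 0.25), with HDAC3 added at 0.34 (adjusted p = 0.016).

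At 12 h 7 of the 9 genes were higher than at 0 h and none was lower, where 27% of all genes were called higher and 29.1% lower. HDAC7 led with 312 and 345 CPM at 12 h against 37.1 and 40.1 CPM at 0 h, an 8.51-fold difference of means and a log2 fold change of 3.04 ± 0.09 (adjusted p = 1.0e-19). The groups were far apart, and 113 of 16255 genes had a larger log2 fold change. HDAC1 had 246 and 234 CPM at 12 h against 79.1 and 85.2 CPM at 0 h (log2 fold change 1.49 ± 0.07, adjusted p = 2.0e-15), which put both 12 h libraries beside the 241 CPM seen without 4sU. HDAC2 and HDAC8 had log2 fold changes of 0.56 ± 0.07 (adjusted p = 8.9e-08) and 0.79 ± 0.16 (adjusted p = 9.7e-05).

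HDAC3, lower at 4 h, had 110 and 108 CPM at 12 h against 68.3 and 79.1 CPM at 0 h (log2 fold change 0.51 ± 0.08, adjusted p = 9.7e-06). HDAC5 had 16.4 and 14.0 CPM at 12 h against 11.8 and 7.43 CPM at 0 h (log2 fold change 0.60 ± 0.18, adjusted p = 0.0076), and HDAC10 had a log2 fold change of 0.46 ± 0.17 (adjusted p = 0.025). Neither of these 2 calls was firm. HDAC5 lost its call without replicate 2 at 0 h (adjusted p = 0.15) or replicate 1 at 12 h (adjusted p = 0.072), and HDAC10 lost its call under DESeq2 (adjusted p = 0.077) and without replicate 2 at 0 h (adjusted p = 0.079) or at 12 h (adjusted p = 0.19).

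HDAC4 (0.47 ± 0.21, adjusted p = 0.062) and HDAC6 (-0.14 ± 0.12, adjusted p = 0.33) did not pass at 12 h. HDAC4 passed without replicate 1 at 12 h (adjusted p = 0.031), and leaving out either library at 1 h, replicate 1 at 2 h or the library without 4sU also moved it under the threshold (adjusted p = 0.042 to 0.047). The median log2 fold change of the 9 genes was 0.56, and that of all genes tested was -0.06. Relative to spike-in counts the median of all genes was 0.36, HDAC4 joined the higher genes at 0.89 (adjusted p = 0.0013) and HDAC6 turned to 0.28 (adjusted p = 0.11). In a fit that also held the spike-in side, 5 of 9 and 17.9% of all genes were called higher, with HDAC7 at 2.80 ± 0.14 and HDAC1 at 1.40 ± 0.12, and HDAC5 (0.39, adjusted p = 0.35) and HDAC10 (0.34, adjusted p = 0.40) lost their calls.

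Set against the library without 4sU, the mean at 12 h was 99.8% for HDAC1, 99.7% for HDAC5, 95.5% for HDAC2, 89.2% for HDAC3 and 82.8% for HDAC4. It was 79.0% for HDAC6, 76.2% for HDAC8, 66.8% for HDAC10 and 40.2% for HDAC7. So the gene with the largest fold change over the chase was also the one farthest under its level in cells without 4sU, a level that rests on 1 library.

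Counting has a limit where genes overlap, and the 2 overlaps with protein-coding genes are given here. Noncoding genes with counts also overlap HDAC2, HDAC3, HDAC4, HDAC7 and HDAC8. The most counted of them is AC004466.1 at HDAC7, with 223 counts over all libraries, and AC062017.1 at HDAC4 has 156, against 1155 for HDAC4 itself. The 3' end of HDAC7 (chromosome 12, 47782722-47833132 in GRCh38, minus strand) overlaps by 32 bases that of SLC48A1, a haem transporter gene on the plus strand, and the use of strand in the counting is not given in the sources used here. SLC48A1 had 31.2 CPM ± 0.993 at 12 h and 31.1 CPM ± 3.66 at 0 h (SD, n = 2 each), against 119 CPM without 4sU, and its log2 fold change at 12 h against 0 h was -0.05 ± 0.11 (adjusted p = 0.70). HDAC10 (chromosome 22, 50245183-50251405, minus strand) shares 5956 bases with MAPK12 on the same strand. MAPK12 had log2 fold changes of -1.90 ± 0.14 at 0 h against no 4sU (adjusted p = 7.0e-12) and 0.88 ± 0.13 at 12 h against 0 h (adjusted p = 2.8e-06), so the HDAC10 values are uncertain.

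The promoters of HDAC7 and HDAC1, which had the largest changes in total RNA, and of HDAC6, which did not pass in either comparison, are shown for reference. Each is 250 bases before to 50 after a RefSeq start on GRCh38.p14, on the coding strand, with capitals marking every match on either strand to the GC box GGGCGG, the CCAAT box, the TATA box TATAAA, the GATA factor motif AGATAA or the E box CACGTG.
HDAC7, chr12:47819854-47820153, minus strand: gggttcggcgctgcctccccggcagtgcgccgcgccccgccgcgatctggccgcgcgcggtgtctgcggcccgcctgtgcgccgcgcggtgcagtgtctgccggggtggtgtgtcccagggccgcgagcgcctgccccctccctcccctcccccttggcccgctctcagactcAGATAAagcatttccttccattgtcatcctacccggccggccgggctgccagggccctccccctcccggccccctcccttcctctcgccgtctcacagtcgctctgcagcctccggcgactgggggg
HDAC1, chr1:32291833-32292132, plus strand: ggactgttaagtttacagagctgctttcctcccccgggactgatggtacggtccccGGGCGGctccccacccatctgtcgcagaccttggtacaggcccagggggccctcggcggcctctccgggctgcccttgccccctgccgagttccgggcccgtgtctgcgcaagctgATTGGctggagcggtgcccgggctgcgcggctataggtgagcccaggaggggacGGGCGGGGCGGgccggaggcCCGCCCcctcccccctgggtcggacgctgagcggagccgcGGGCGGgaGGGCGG
HDAC6, chrX:48801148-48801447, plus strand: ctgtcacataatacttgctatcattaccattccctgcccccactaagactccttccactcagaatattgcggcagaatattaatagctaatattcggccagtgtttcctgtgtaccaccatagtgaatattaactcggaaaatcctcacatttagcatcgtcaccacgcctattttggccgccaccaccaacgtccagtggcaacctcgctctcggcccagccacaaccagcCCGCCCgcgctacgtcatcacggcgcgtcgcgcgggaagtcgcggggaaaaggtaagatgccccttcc
The HDAC1 window holds 6 GC boxes, some of them overlapping, and 1 CCAAT match, the HDAC6 window holds 1 GC box, and the HDAC7 window holds no GC box and 1 AGATAA. Of 35116 RefSeq promoters of the same length, 44.9% hold a GC box, 34.6% CCAAT and 10.3% AGATAA. The G and C content was 74.7% for HDAC7, 73.7% for HDAC1 and 53.0% for HDAC6, against a median of 58.7%. Of the 9 genes 8 matched an entry, HDAC5 being the exception, and the 3 entries of HDAC6 were narrowed to the one nearest the GENCODE start. The only HDAC7 entry ends at 47820153, while the GENCODE start of this minus-strand gene is at 47833132. The HDAC7 window thus describes a start inside the annotated gene. A match describes the letters only.

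The mix of deacetylase transcripts was thus different in each state. HDAC7 supplied 35.1% ± 2.02 of the counts of the 9 genes at 12 h and 10.4% ± 0.503 at 0 h (SD, n = 2 each), against 55.7% in the library without 4sU. At 0 h HDAC2 was the largest contributor, with 30.8% ± 1.25. The 9 genes together had 937 CPM ± 12.0 at 12 h and 373 CPM ± 1.94 at 0 h, against 1470 CPM without 4sU.

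The level order changed with it. At 12 h the order was HDAC7, HDAC1, HDAC2, HDAC3, HDAC6, HDAC8, HDAC5, HDAC10 and HDAC4, and no neighbours in that order overlapped. At 0 h it was HDAC2, HDAC1, HDAC3, HDAC7, HDAC6, HDAC8, HDAC5, HDAC10 and HDAC4, in which HDAC1 and HDAC3 met at 79.1 CPM and HDAC5 overlapped both HDAC8 and HDAC10. The 9 means spanned 8.23 CPM (HDAC4) to 329 CPM (HDAC7) at 12 h, and 5.75 CPM (HDAC4) to 115 CPM (HDAC2) at 0 h.

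The paralogs HDAC1 and HDAC2 exchanged places. The ratio of HDAC1 to HDAC2 counts was 0.673 and 0.762 in the 0 h libraries, 0.784 and 0.704 in those of 1 h, and 0.732 and 0.786 in those of 2 h. At 4 h the ratio was 0.997 and 1.117, at 8 h 1.201 and 1.200, and at 12 h 1.37 and 1.36, and without 4sU it was 1.31. HDAC2 counts thus exceeded HDAC1 counts in all 6 libraries to 2 h and were the smaller in all 4 libraries at 8 and 12 h.

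**Figure D2:**
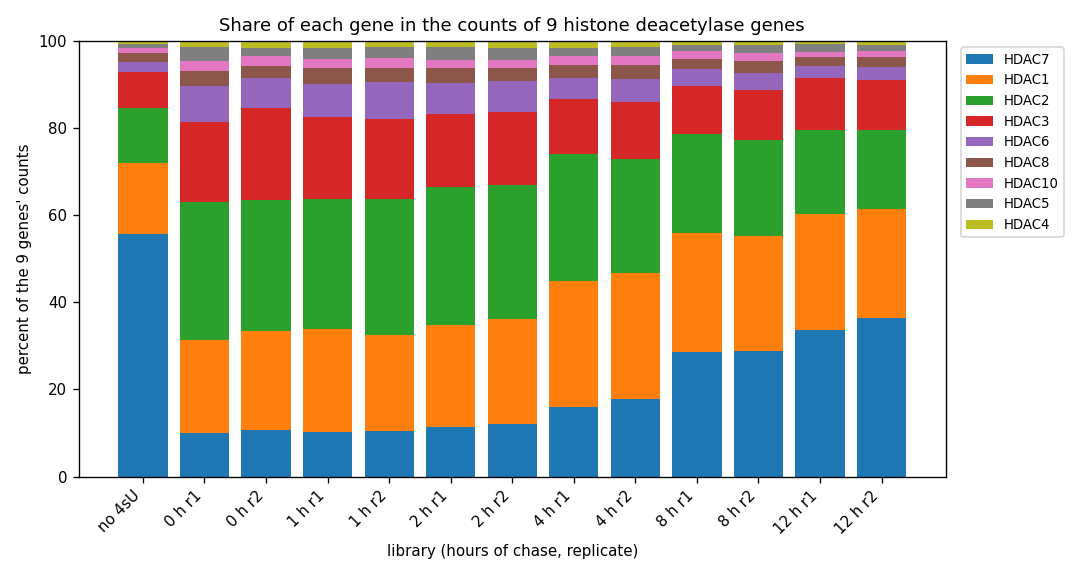
Percent of the summed counts of the 9 genes (vertical axis, 0 to 100) that each gene supplied in each of the 13 libraries, from the library without 4sU on the left through 0 to 12 h of chase. HDAC7 (blue, bottom) covers 35.1% at 12 h and 10.4% at 0 h, against 55.7% without 4sU.

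The labelled share at the end of the pulse, the part of a gene's counts that were called labelled, differed widely between the 9 genes. It was 75.6% ± 6.26 for HDAC4, 74.3% ± 1.87 for HDAC2, 59.3% ± 3.91 for HDAC8 and 55.5% ± 3.95 for HDAC1 (SD, n = 2). It was 45.1% ± 1.45 for HDAC7, 35.1% ± 1.16 for HDAC5, 27.1% ± 1.04 for HDAC6, 18.7% ± 0.00783 for HDAC3 and 10.4% ± 0.789 for HDAC10. The median of all genes tested was 57.9%, with a 10th to 90th percentile range of 22.1% to 76.1%, so HDAC3 and HDAC10 lay under that range. All 9 genes had 0 labelled counts in the library without 4sU, which for HDAC7 allows a share of up to 0.0226% (3 of its 13246 counts) and for HDAC4 of up to 1.86% (3 of 161), covering counting error only. A labelled read needs a T in the sequenced stretch. Of the last 250 bases of the annotated transcript, HDAC10 has 14% T, HDAC6 22%, HDAC7 28.4%, HDAC2 29.2%, HDAC3 and HDAC5 34.0%, HDAC1 38.0%, HDAC4 39.6% and HDAC8 42.0% (median of 8322 genes 31.6%), and the part of this in the shares was not tested.

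Loss of labelled RNA was compared with the median gene, whose labelled counts fell by 0.24 per hour on the log2 scale relative to the total human counts of each library. Of the 9 genes 7 lost label more slowly than that and 2 could not be told from it; the 7 were HDAC1, HDAC2, HDAC3, HDAC5, HDAC6, HDAC7 and HDAC8, where 36.3% of 9649 genes tested were called slower, 36% faster and 72.3% either. None was called faster by edgeR, none had an unadjusted p under 0.05 in that direction, and DESeq2 called none faster either. All 9 passed the minimum of 100 labelled counts, HDAC10 with 113 and HDAC4 with 325 over all libraries. In a fit that also held the spike-in side, 5 of 9 and 24.8% of all genes were slower, while HDAC6 (0.06 ± 0.04 per hour, adjusted p = 0.20) and HDAC7 (0.03 ± 0.03 per hour, adjusted p = 0.41) lost their calls. Over 0 to 4 h alone only HDAC1, HDAC2 and HDAC7 of the 9 were called, all slower, where 17.2% of all genes were called slower and 19.7% faster.

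Relative to library totals, HDAC1 had the longest apparent half-life of the 9. Its labelled RNA stood at 46.1 and 44.9 CPM at 0 h, 53.3 and 56.2 CPM at 4 h, 43.5 and 47.0 CPM at 8 h, and 34.2 and 29.9 CPM at 12 h. The 4 h libraries were the highest of the series and the 12 h libraries the lowest, without overlap. Its slope was above that of the median gene by 0.20 ± 0.01 per hour on the log2 scale (adjusted p = 3.9e-13), and the apparent half-life was 26.2 h, of which only the lower limit of 14.6 h is usable because the upper one exceeds 48 h. The half-life of the median gene was 4.30 h. Without replicate 2 at 12 h the value was 43.0 h (lower limit 18.3 h) and over 2 to 12 h it was 16.7 h (lower limit 9.91 h), and over 0 to 4 h no half-life could be fitted for HDAC1, since the labelled level did not decline. Relative to spike-in totals only a lower limit of 27.7 h can be given for HDAC1, with the median gene at 5.01 h.

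HDAC3 followed with a half-life of 14.4 h (95% interval 9.99 to 25.5 h). Its labelled RNA was 7.18 and 8.02 CPM at 12 h and 12.8 and 14.8 CPM at 0 h, without overlap, and its slope lay 0.17 ± 0.01 per hour above the median gene (adjusted p = 2.0e-10). The half-life of HDAC3 moved to 27.4 h relative to spike-in totals, of which only the lower limit of 15.2 h is usable, and to 8.40 h (6.11 to 13.5 h) relative to its own total counts. HDAC2 had a half-life of 7.90 h (6.86 to 9.32 h) and the most labelled RNA of the 9 genes at 0 h, with 30.1 and 27.5 CPM at 12 h and 89.0 and 81.7 CPM at 0 h (slope difference 0.11 ± 0.01 per hour, adjusted p = 3.7e-10). HDAC8 had a half-life of 9.02 h (6.62 to 14.1 h, slope difference 0.13 ± 0.02 per hour, adjusted p = 1.8e-06), and its 2 replicate series gave 6.88 and 12.8 h.

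The class IIa genes lay between 3.60 h (HDAC4) and 9.25 h (HDAC5). HDAC4 had the shortest half-life of the 9, at 3.60 h (2.74 to 5.26 h), with labelled RNA of 0.167 and 0.297 CPM at 12 h and 3.84 and 4.88 CPM at 0 h. Its slope could not be told from that of the median gene (-0.04 ± 0.04 per hour, adjusted p = 0.28). HDAC5 had a half-life of 9.25 h (6.18 to 18.4 h, slope difference 0.14 ± 0.03 per hour, adjusted p = 4.7e-05). Over 0 to 4 h the slope difference of HDAC5 was -0.01 per hour (adjusted p = 0.97).

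HDAC7 had a half-life of 6.40 h (5.14 to 8.49 h), or 16.4 h (lower limit 7.88 h) over 0 to 4 h alone, with labelled RNA of 3.59 and 4.75 CPM at 12 h and 17.1 and 17.6 CPM at 0 h, and its slope lay 0.07 ± 0.02 per hour above the median gene (adjusted p = 0.00040). Relative to the gene's own total counts, which were 8.51-fold higher at 12 h than at 0 h, the same label was lost faster than the median gene's (-0.18 ± 0.02 per hour, adjusted p = 9.8e-09), with a half-life of 2.24 h (2.02 to 2.52 h). HDAC7 was the only one of the 9 whose direction turned with the denominator and passed in both. HDAC1, in the same change, kept its direction and had 5.55 h (4.98 to 6.27 h), and the median gene had 3.79 h. The order turned with the denominator too. Relative to own totals HDAC3 had the longest half-life of the 9, at 8.40 h, and HDAC5 (6.46 h, 4.81 to 9.83 h) and HDAC6 (6.25 h, 5.02 to 8.29 h) also lay above HDAC1, with intervals that overlapped that of HDAC1.

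The class IIb genes had half-lives of 5.69 h (4.66 to 7.32 h) for HDAC6 and 6.10 h (3.48 to 24.4 h) for HDAC10. HDAC6 was called slower than the median gene (0.06 ± 0.02 per hour, adjusted p = 0.0051), a call lost with no filter on low counts (adjusted p = 0.17). HDAC10 was not called (0.07 ± 0.06 per hour, adjusted p = 0.27), and its replicate series gave 12.4 and 2.98 h. At 8 h its labelled RNA was 0.946 CPM in replicate 1 and 0.0821 CPM in replicate 2. In the order of half-lives relative to library totals, from HDAC4 through HDAC6, HDAC10, HDAC7, HDAC2, HDAC8, HDAC5 and HDAC3 to HDAC1, the intervals of all neighbours overlapped.

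**Figure D3:**
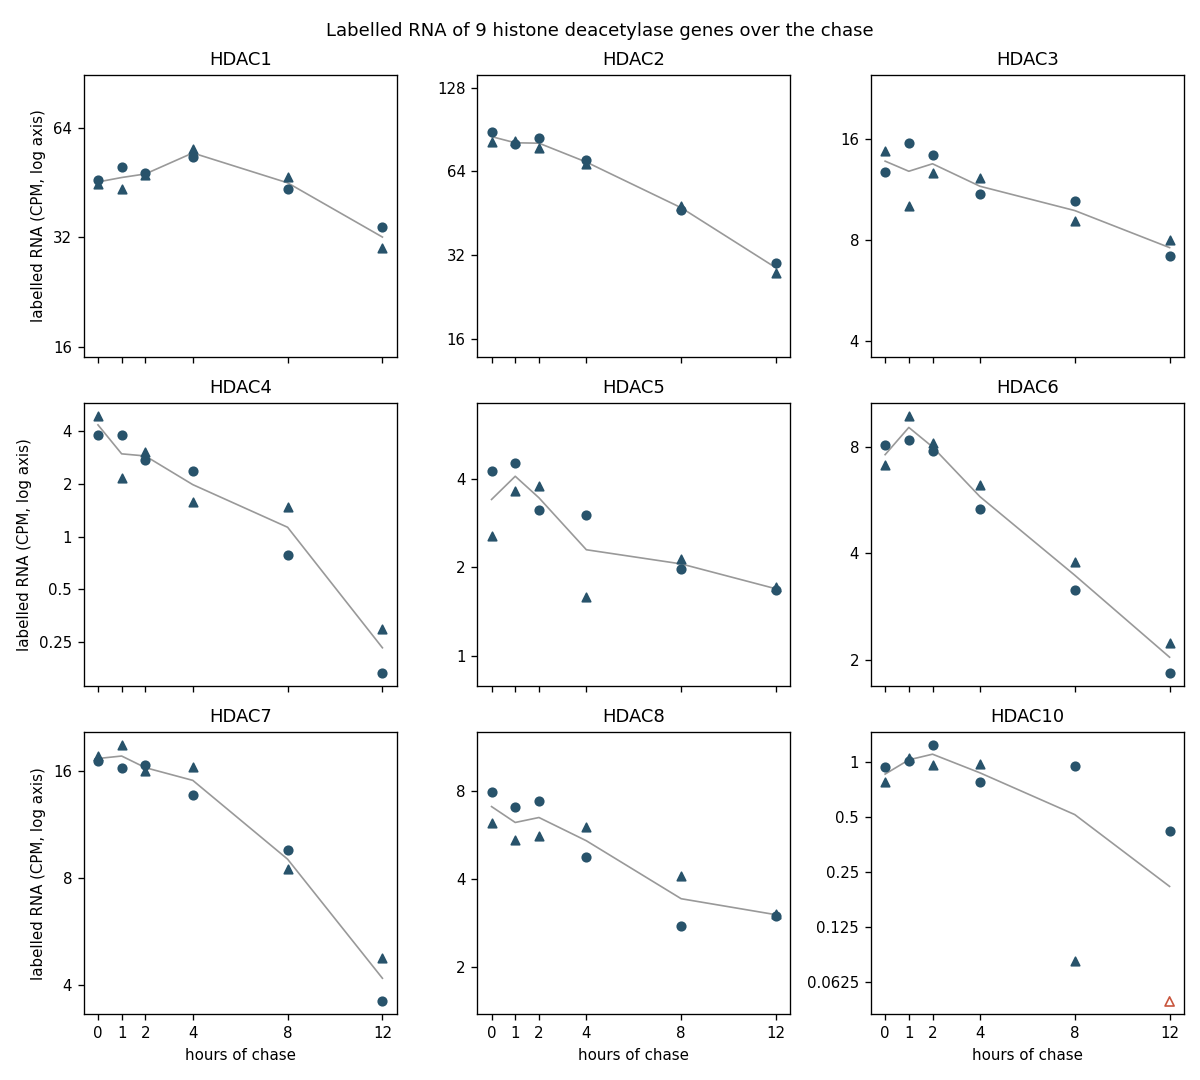
Labelled RNA of each gene in CPM (log axis) against hours of chase, with circles for replicate 1, triangles for replicate 2 and a line through the means. The open red triangle marks replicate 2 of HDAC10 at 12 h, which had 0 labelled counts and is drawn under the scale. HDAC1 peaks at 4 h, at 53.3 and 56.2 CPM, and HDAC4 has the steepest course.

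**Figure D4:**
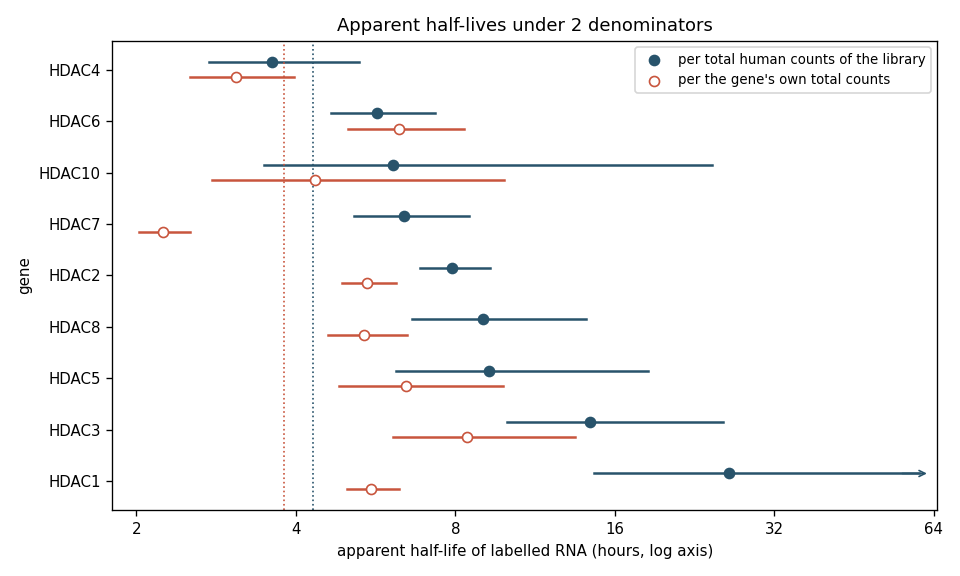
Apparent half-life in hours (log axis) with 95% intervals for each gene relative to the total human counts of the library (filled blue) and to the gene's own total counts (open red). Dotted lines mark the medians of all genes, 4.30 h and 3.79 h. The 2 estimates of HDAC7, 6.40 h and 2.24 h, lie on opposite sides of these lines, and the arrow marks the open upper end of HDAC1.

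For HDAC1, HDAC2 and HDAC7 log2 labelled counts bent downwards with time (adjusted p = 0.00044, 0.014 and 0.0062), so their decline was not a single exponential. The same bend was called for 33.2% of all genes, near the share among the 9, so it does not set these genes apart. The other 6 did not pass this test of curvature. At 2 h the mean labelled level of the 9 genes lay between 0.664 times the 0 h level (HDAC4) and 1.28 times (HDAC10), with the median gene at 0.897 times.

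Cells were washed free of 4sU before the chase, so a gain in total RNA by 12 h lies in unlabelled RNA by design. The folds below give only its size, and they include HDAC4 and HDAC6, whose totals were not called higher at 12 h. At 4 h labelled RNA of HDAC1 was higher too, with a mean of 54.8 CPM against 45.5 CPM at 0 h. That of HDAC7 was lower, with 15.1 CPM at 4 h against 17.4 CPM at 0 h. For HDAC7 unlabelled RNA stood at 324 CPM ± 22.3 at 12 h and 21.2 CPM ± 1.70 at 0 h (SD, n = 2 each), a 15.3-fold difference, while the median gene had a 2.41-fold one and 95% of genes were under 7.38-fold. The fold was 5.77 for HDAC4, 5.68 for HDAC1, 5.01 for HDAC2 and 3.82 for HDAC8. For HDAC5 unlabelled RNA was 13.5 CPM ± 1.67 at 12 h and 6.23 CPM ± 1.90 at 0 h. The fold was 1.69 for HDAC3, 1.56 for HDAC10 and 1.20 for HDAC6. At 4 h HDAC3 and HDAC6 had 0.793 and 0.867 times their 0 h level of unlabelled RNA, against 1.75 times for the median gene.

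The sequence features below, and the T content given above, were read from a single annotated transcript per gene. Which 3' ends these cells use was not tested. Sequence features of the annotated 3' untranslated regions (3' UTRs, GENCODE 29, GRCh38) differed between the genes. They run over 8030 bases in HDAC2, 4929 in HDAC4, 4554 in HDAC8 and 1630 in HDAC5, and 1119 in HDAC7, 592 in HDAC3, 591 in HDAC1, 370 in HDAC6 and 324 in HDAC10. The median of the 8322 tested genes with a 3' UTR, the set for the shares below, was 1106. The pentamer ATTTA, the core of AU-rich elements bound by decay factors, occurs 29 times in HDAC2, 13 in HDAC8, 5 in HDAC4 and 2 in HDAC1, once each in HDAC5, HDAC6 and HDAC10, and not in HDAC3 or HDAC7, while 70.4% of genes hold it. The motif TGTANATA, bound by Pumilio proteins, which recruit deadenylases, occurs 3 times in HDAC2 and once each in HDAC4 and HDAC5, while 27.9% of genes hold it. Both were searched on the coding strand only, over 3' UTRs of any length. These sites are shown with 8 bases on either side on the coding strand, in DNA letters, with the motif in capitals (for HDAC2 the first of its 3).
HDAC4, chromosome 2: tcttgtggTGTAAATAaagactgc
HDAC5, chromosome 17: tgtccttgTGTAAATAaacttgtt
HDAC2, chromosome 6: aaatagttTGTAAATAtgaaaaga
The HDAC4 and HDAC5 sites begin at bases 4898 and 1596 of their 3' UTRs, close to the annotated ends, and the HDAC2 site begins at base 2806. The half-lives of the 3 genes that hold the motif, 3.60, 9.25 and 7.90 h, fall on both sides of the all-gene median of 4.30 h. Over the 8322 tested genes with an annotated 3' UTR, the median half-life was 3.64 h for the 2323 with the motif and 4.45 h for the 5999 without it. For ATTTA it was 3.97 h for the 5860 genes with it and 4.97 h for the 2462 without. The length of the 3' UTR was not held in either split.

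By Euclidean distance between mean-centred log2(CPM + 1) profiles over the 13 libraries, the genes most like HDAC7 among 9775 with a mean of 5 CPM or more were ST6GAL1 (distance 0.904), FAM216A (1.20) and EML2 (1.24). ST6GAL1, a sialyltransferase gene, had 68.3 CPM at 12 h and 8.27 CPM at 0 h, against 142 CPM without 4sU. The low level at 0 h and the partial return by 12 h of all 3 follow from this choice. The distance was taken over the same 13 libraries.

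The mRNAs of the proteins that carry the deacetylases were compared with the median gene in the same way, where 36.3% of all genes were called slower and 36% faster. Of 11 tested NuRD genes 8 were slower and 1 faster than the median gene, with a median half-life of 6.15 h. GATAD2B, which encodes a scaffold subunit, had 2.36 h and the methyl-CpG-binding family gene MBD3 4.28 h, and CDK2AP1 had 10.8 h. Of 13 tested SIN3 genes 4 were slower and 6 faster (median 4.39 h), from ING1 (1.93 h) and ARID4B (2.03 h) to SAP18 (9.30 h) and the histone chaperone RBBP7 (10.7 h), which belongs to both complexes. Of 7 tested CoREST genes 2 were slower and 1 faster (median 3.81 h), with the scaffold gene RCOR1 at 3.04 h, ZMYM3 at 3.59 h and HMG20B at 7.42 h. KDM1A, the lysine demethylase of that complex, had a half-life of 24.8 h, of which only the lower limit of 13.4 h is usable. Its total RNA had a log2 fold change of -2.13 at 0 h against no 4sU (adjusted p = 9.7e-13) and 1.65 at 12 h against 0 h (adjusted p = 4.2e-11), and relative to its own total its half-life was 4.96 h.

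HDAC3's partners in the NCoR complex counted 4 slower and 2 faster of 7 tested (median 5.30 h). TBL1XR1, which encodes a WD40-repeat subunit, had 5.52 h, while ZBTB33 (Kaiso, a DNA-binding partner) had 2.16 h and KDM4A 3.21 h. Both tested MiDAC genes, MIDEAS (2.49 h) and DNTTIP1 (3.27 h), were faster. Among the partners and kinases of class IIa proteins 9 of 17 were faster and 5 slower (median 3.39 h). Its short-lived end held MEF2D (2.14 h), a partner of HDAC4, HDAC5 and HDAC7, and the kinase gene MARK2 (2.33 h), and its long-lived end the 14-3-3 genes YWHAE (11.5 h) and YWHAQ (14.0 h).

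Histone acetyltransferases add the groups that deacetylases remove. Of their 12 tested genes 8 were faster and 2 slower than the median gene (median 3.25 h), with KAT6B at 2.09 h and EP300 at 2.30 h, and KAT2A at 6.32 h and HAT1 at 7.12 h. The NAD-dependent deacetylases, the sirtuins, counted 2 faster and 1 slower of 6 (median 3.88 h), SIRT1 (2.46 h) and SIRT7 (2.96 h) being at the short end and SIRT3 (4.03 h) and SIRT2 (5.91 h) at the long end. Of 12 polyamine genes, the pathway of HDAC10's substrate, 8 were slower and 1 faster (median 7.86 h), from AMD1 (2.45 h) and SAT2 (3.36 h) to SMS (11.0 h) and OAZ1 (11.1 h). The median of the 9 deacetylase genes was 7.90 h. The lists were not compared by a test.

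**Figure D5:**
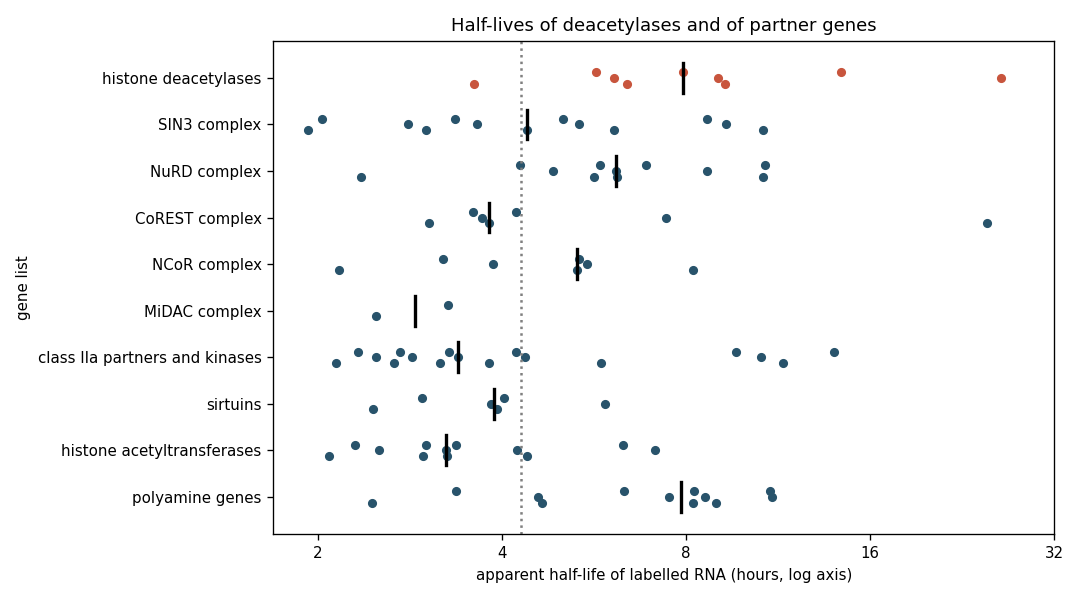
Apparent half-life in hours (log axis) of each tested gene by list, with the 9 histone deacetylase genes in red at the top, black bars for list medians and a dotted line for the median of all genes, 4.30 h. The deacetylases centre on 7.90 h and the acetyltransferases on 3.25 h, with wide overlap.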

How the data were processed

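The titles of the 13 SLAM-seq libraries of K562 cells set their groups, which are 6 times of chase in duplicate and 1 library with no 4sU. The authors deposited 3 tables of raw counts, of all reads and of reads they call nascent (here labelled) per human gene and of reads per Drosophila spike-in gene (5% S2 material, per the labels' protocols). The submitters' processing notes name the builds hg38 and dm6, bedtools, Trim Galore 0.6.5 and bcl2fastq 2.17.1.14. What is not given in the sources used is the aligner, the counter, whether strand was used, and how many conversions a nascent read needs. Symbols came from a table of gene names, and positions and transcripts from GENCODE 29.

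Total counts were tested with edgeR 4.0.16 (quasi-likelihood test, TMM scaling, R 4.3.3) over all 7 groups. The 16255 genes tested passed edgeR's own count filter, which a single library can satisfy because the group without 4sU has no replicate. Labelled counts were tested for a slope over hours against the median slope, with the TMM-scaled size of each total library as offset, in 9649 genes with 100 or more labelled counts and a mean of at least 5 CPM. Apparent half-lives were fitted to labelled counts by quasi-Poisson regression with 95% intervals, in Python 3.11.15, and an upper limit over 48 h is not printed. CPM are counts scaled to the TMM-adjusted library size, and intervals and floors cover counting error only. DESeq2 1.42.0, other filters, scalings and time ranges, a replicate block and leaving out each library were alternatives, those for 2 and 8 h being added after seeing the data. On simulated counts of 9649 genes the slope test called 98.0% of 100 differences of 0.15 per hour and 30.0% of 100 differences of 0.05 per hour. The test of 12 h against 0 h called 48.4% of 93 log2 changes of 1 and 6.52% of 92 log2 changes of 0.5, among 15212 genes of all levels. The simulations gave every gene the same dispersion and, for the slope, a purely exponential decline, while 33.2% of the real genes bent downwards. These rates may thus differ from those on the real counts.

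The named genes are all 9 deacetylases, in each list the 2 genes of shortest and the 2 of longest half-life (1 and 1 in lists with under 6 tested) and the 3 genes nearest to the deacetylase with the largest F over the chase. A gene of the NCoR list that this rule names is not reported here. The members and lists were chosen with earlier results of these data known.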

Additional observations from a re-analysis of the deposited data

How the results depend on the processing

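Of 1149 slopes and log2 fold changes of single genes under another setting, 1062 kept their direction and their side of the threshold. Leaving out 1 library at a time, 7 of the 9 genes were slower than the median gene and 0 faster, 0 were called at 1 h in either direction, 0 were higher and 0 to 1 lower at 2 h (HDAC3, without replicate 1 at 0 h or either replicate at 4 h), 2 were higher and 1 to 2 lower at 4 h (2 without replicate 2 at 4 h), 4 to 5 were higher and 0 lower at 8 h, 5 to 8 were higher and 0 lower at 12 h, and 7 to 9 were lower and 0 higher at 0 h against no 4sU. For these leave-out counts, the shares of all genes given in the Results come from fits with all libraries. Over 0 to 4 h alone 3 of the 9 genes were slower (17.2% of all genes), with HDAC5 at -0.0055 per hour against the median gene. Relative to the gene's own total 1 of the 9, HDAC7, was faster, at -0.18 per hour, and 6 were slower. Of all 9649 genes tested, 3694 were faster and 3842 slower in that setting. Relative to spike-in counts 0 of the 9 were lower at 4 h (1040 of all 16255 genes), and 4 at 0 h against no 4sU (18.4% of all genes). In a fit holding the spike-in side 1 was lower at 2 h (2.99% of all genes). In that fit 2 were lower at 4 h (2102 of all 16255 genes) and 3 were higher at 8 h (15.5% of all genes). The cause of these shifts was not tested, but for HDAC7 relative to its own total the rising denominator is part of the setting. With at least 500 labelled counts, HDAC4, HDAC5 and HDAC10 were not tested, and over 0 to 4 h HDAC1 had no finite half-life. Libraries of the same replicate number did not deviate together at most pairs of times. In total RNA 4 of 15 pairs had a correlation over 0.1, with a range of -0.140 to 0.396, the highest between 4 and 8 h. In labelled RNA it was 1 of 15, with a highest value of 0.122. A fit with the numbers as a block called 7 slower (3436 of all 9649 genes). It called 1 lower at 2 h (361 of all 16255 genes), namely HDAC3 (adjusted p = 0.045, against 0.061 without the block). At 4 h it called 2 higher and 1 lower (2793 and 2639 of all genes). It called 5 higher at 8 h (3910 of all genes), 7 higher at 12 h (4420) and 8 lower at 0 h against no 4sU (5174). HDAC3 at 2 h was the only call of the 9 genes that the block changed in these comparisons. The group lacking 4sU is a single library here, and low counts per library limit HDAC4 (52 to 161), HDAC5 (67 to 247) and HDAC10 (71 to 283).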
